A study of Tribolium castaneum with 2 samples.

Results

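The Hox complex genes of the red flour beetle *Tribolium castaneum* are the 10 genes of 1 cluster on linkage group ChLG2 that were chosen by position and homology, of 17070 reference genes in all. They are Abd-B (TC000889), abd-A (TC000894), Utx (TC000903), ptl (TC000912), Cx (TC000917), Dfd (TC000920), zen1 (TC000921), zen2 (TC000922), mxp (TC000925) and lab (TC000926), each taken with the assembled transcripts that share its exonic bases on the same strand. Their levels were compared between larvae held for 12 h in hypoxia/hypercapnia (2% O2, 18% CO2 and 80% N2 supplied to a sealed bottle) and larvae held for 12 h in normoxia (a bottle open to air through cotton). Both groups were late-instar larvae of a laboratory culture at 20 days from oviposition, with 20 larvae to a bottle. The number of larvae behind a library is not given in the sources used here. Each condition is 1 library of poly(A) RNA, so no difference has a replicate check and no gene was tested. The paper states that samples were pooled within each condition before sequencing, so the spread between samples cannot be seen. Low O2 cannot be told apart from high CO2, and the key that links each library to its condition comes from the study's supplement, since the sample titles are bare codes.

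Hox genes encode homeodomain transcription factors that give the segments of an arthropod their identity along the head-to-tail axis. The order of the genes on the chromosome matches the order of the body regions they pattern, from the head at one end of the complex to the tip of the abdomen at the other. In *T. castaneum* the genes stand in a single complex, while in *Drosophila melanogaster* the complex is split. Besides their embryonic role, several Hox genes stay in use in larvae and pupae, where they keep segment identity and direct the form of appendages.

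The files give levels as FPKM, the fragments of a transcript divided by its length and by the mapped total of the library, so levels of different genes are on a per-length scale. The intervals given with each value are those of Cufflinks, combined over the transcripts of a gene, and cover counting and the assignment of reads within 1 library only. The 10 genes together held 59.9 FPKM in hypoxia and 68.4 FPKM in normoxia, 0.00496% and 0.00534% of the FPKM summed over all genes. The half-width of this interval had a median of 22.1% of the level in hypoxia and 20.1% in normoxia for the Hox complex genes above 0, against 12.8% and 13.6% for all genes of at least 5 FPKM. Whole larvae were sequenced, so the segment or tissue behind a value is unknown, and fewer cells of a type cannot be told apart from less RNA per cell.

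All 10 reference transcripts lie on the + strand of ChLG2 and span 709637 bases, from 9691426 at the start of Abd-B to 10401062 at the end of lab, in the positions of the files, whose build is not given in the sources used here. The abdominal end comes first and the head end last. The posterior genes are widely spaced, with 111941 bases between Abd-B and abd-A, 91709 between abd-A and Utx, 132685 between Utx and ptl and 85733 between ptl and Cx. The head end is denser, with 24449 bases between Cx and Dfd, 26272 between Dfd and zen1, 282 between zen1 and zen2, 31623 between zen2 and mxp, and 13653 between mxp and lab. In the RefSeq table of assembly icTriCast1.1 all 10 genes were found by symbol and stand in the same order, with 1 other protein-coding gene (Ftz, between ptl and Cx), 4 miRNA genes and 10 lncRNA genes among them.

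The complex was expressed in late larvae at low to middle levels, and 8 of the 10 genes were above 0 in both libraries. Utx and abd-A, the genes of the hind thorax and the abdomen, stood highest. Next came lab, Cx, Abd-B and ptl, and the lowest genes above 0 were mxp and Dfd, which pattern the segments of the mouthparts. The embryonic genes zen1 and zen2 were listed at 0 in both libraries. Of the 10 genes 7 had a mean of at least 1 FPKM, and 5 had a mean of at least 5 FPKM.

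**Figure D1:**
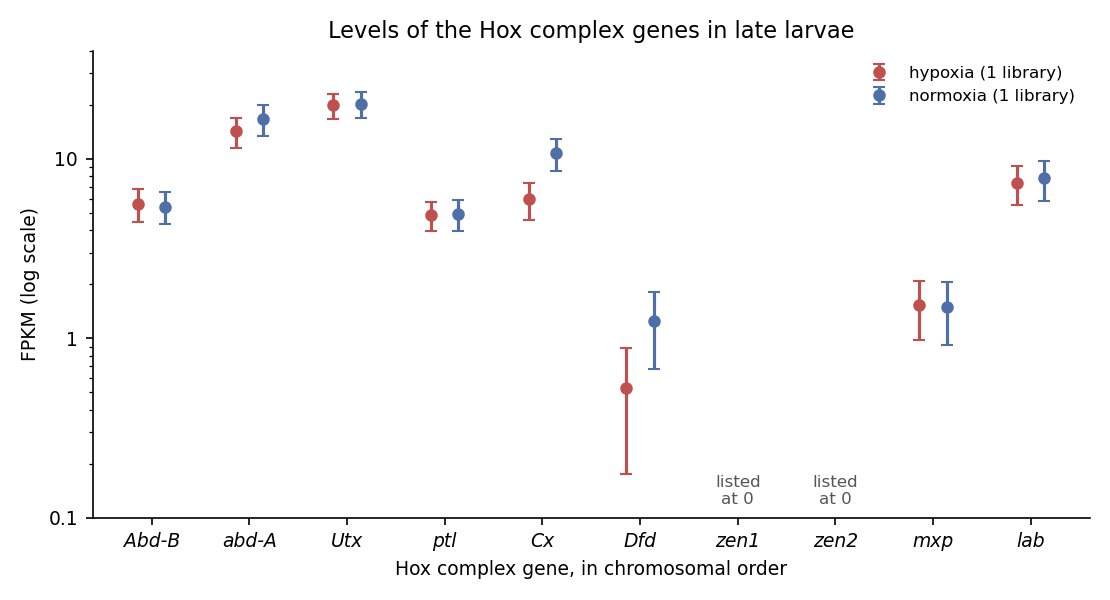
FPKM of the 10 Hox complex genes (log scale) in chromosomal order, from the abdominal end on the left to the head end on the right, in the hypoxia library (red, left of each pair) and the normoxia library (blue). Bars are the combined Cufflinks intervals. Cx is the only gene whose 2 intervals do not overlap, with 5.94 FPKM in hypoxia and 10.7 FPKM in normoxia, and zen1 and zen2 are listed at 0.

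Between the libraries 1 gene of the complex was called. Cx was lower in hypoxia, and no gene was called higher. A call here means a mean of at least 1 FPKM, a change of at least 1.5-fold and intervals that do not overlap. Over the 9725 genes above the filter, 11.8% were called lower and 7.37% were called higher, so 1 lower and 0 higher among the 7 Hox complex genes above the filter is near what the whole table shows. The median log2 ratio, hypoxia over normoxia, was -0.02 over these 7 genes, with a range of -0.84 to 0.05, beside a median of -0.10 over all genes above the filter.

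**Figure D2:**
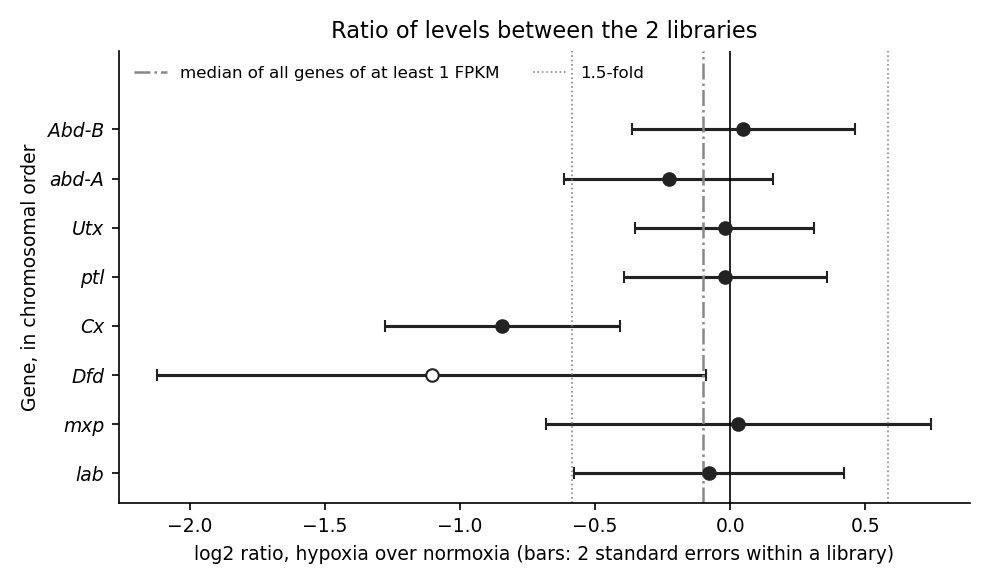
Log2 ratio of hypoxia over normoxia, with a pseudocount of 0.1 FPKM, for the 8 Hox complex genes above 0, in chromosomal order from top to bottom. Bars are 2 standard errors from the intervals within a library, and the open point is Dfd, which is below the filter of 1 FPKM. Cx lies at -0.84, and the other 6 filled points lie between -0.23 and 0.05.

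Abd-B (9691426 to 9700862) patterns the hindmost abdominal segments and the genital region. It had 5.59 FPKM (interval 4.42 to 6.77) in hypoxia and 5.41 FPKM (4.31 to 6.50) in normoxia, a log2 ratio of 0.05 (2 standard errors either way, -0.36 to 0.46). The intervals of both libraries overlapped over most of their width. The reference transcript of 4 exons and 2672 bases was listed at 0 in both libraries, with upper bounds of 0.0900 FPKM in hypoxia and 0.101 FPKM in normoxia. Every FPKM of Abd-B therefore came from assembled transcripts. Most of it was on a transcript of 2 exons that begins inside the reference span, at 3.25 FPKM (2.39 to 4.11) in hypoxia and 4.56 FPKM (3.59 to 5.54) in normoxia, 58.1% and 84.4% of the gene. It has the same intron in both libraries.

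The remaining FPKM of Abd-B was on long transcripts with exons far ahead of the reference. Hypoxia had 2 of them, which begin 52376 and 46935 bases ahead at 1.43 FPKM (0.831 to 2.03) and 0.909 FPKM (0.401 to 1.42), and normoxia had 1, which begins 32660 bases ahead at 0.843 FPKM (0.354 to 1.33). An exon of 46 bases, 31289 bases ahead of the reference, has the same ends in all 3 long transcripts. Together the long transcripts held 2.34 FPKM (1.55 to 3.13) in hypoxia and 0.843 FPKM (0.354 to 1.33) in normoxia. These intervals do not overlap, although the totals of the gene do, and without the long transcripts the log2 ratio of Abd-B was -0.48. The libraries were assembled separately, so a transcript that was not built in one library may have its reads on another transcript of the gene there. The last exon is 39 bases longer at its beginning in 1 long transcript of each library.

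abd-A (9812804 to 9844051), which gives the abdominal segments their identity, had 14.2 FPKM (11.6 to 16.8) in hypoxia and 16.7 FPKM (13.4 to 19.9) in normoxia. The log2 ratio was -0.23 (-0.61 to 0.16), and the intervals overlapped. The reference transcript of 3 exons and 1242 bases carried 8.69 FPKM in hypoxia and 10.5 FPKM in normoxia, 61.2% and 63.0% of the gene. The share of the reference transcript was thus close to the same in both libraries.

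Assembled abd-A transcripts reach back through the space between abd-A and Abd-B. A transcript of 6 exons with the same introns in both libraries begins 105418 bases ahead of the reference in hypoxia and 105400 bases ahead in normoxia, which is 6524 and 6542 bases past the end of Abd-B. It had 5.51 FPKM (4.16 to 6.86) in hypoxia and 4.78 FPKM (3.28 to 6.27) in normoxia. Normoxia had 1 more transcript, which begins 93701 bases ahead, at 1.38 FPKM (0.515 to 2.24). All 3 assembled transcripts share exons of 151 and 55 bases, which lie 89401 and 71315 bases ahead of the reference, and all 3 have a middle exon of 45 bases where the reference has 33 bases. They also share bases with TC000893, a reference gene just ahead of abd-A that is listed at 0 in both libraries, and without them the log2 ratio of abd-A was -0.27.

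Utx (9935761 to 10008226) is the Ultrabithorax gene of the beetle, which sets the hindmost thoracic segment and the front of the abdomen apart. It was the highest gene of the complex in both libraries, with 19.9 FPKM (16.6 to 23.1) in hypoxia and 20.1 FPKM (16.8 to 23.5) in normoxia. The log2 ratio was -0.02 (-0.35 to 0.31). Of the 17070 genes, 4517 had a higher level than Utx in hypoxia and 4733 had one in normoxia. Utx and ptl share 1 Cufflinks gene identifier in each library, although no transcript joins their exons.

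The total of Utx and its reference transcript were nearly the same in both libraries, while its assembled transcripts were not. The reference transcript of 3 exons and 945 bases had 7.62 FPKM (5.12 to 10.1) in hypoxia and 7.18 FPKM (4.48 to 9.89) in normoxia. Hypoxia had 2 assembled transcripts at 5.51 FPKM (4.01 to 7.00) and 6.73 FPKM (5.36 to 8.09), and normoxia had 1 at 13.0 FPKM (11.0 to 14.9). All 3 run on past the end of the reference, by 21354 to 22063 bases, and end at least 110623 bases short of ptl. None has the same introns in the other library.

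The middle exon of the Utx reference, from 9991764 to 9991778, has 15 bases and is either included or skipped. In *Drosophila* the transcripts of Ultrabithorax are known for the alternative splicing of very short exons. Transcripts that include it summed to 14.3 FPKM (11.5 to 17.2) in hypoxia and 7.18 FPKM (4.48 to 9.89) in normoxia. Transcripts that skip it had 5.51 FPKM (4.01 to 7.00) in hypoxia and 13.0 FPKM (11.0 to 14.9) in normoxia. The intervals are apart for both forms, and the transcripts with the exon held 72.3% of the gene in hypoxia and 35.7% in normoxia. This exon was singled out after its values were seen, and the intervals take the set of transcripts in each library as given. In normoxia no assembled transcript includes the exon, and the reference transcript alone carries it. The files hold no counts of reads across the junctions, so the split was not tested.

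**Figure D3:**
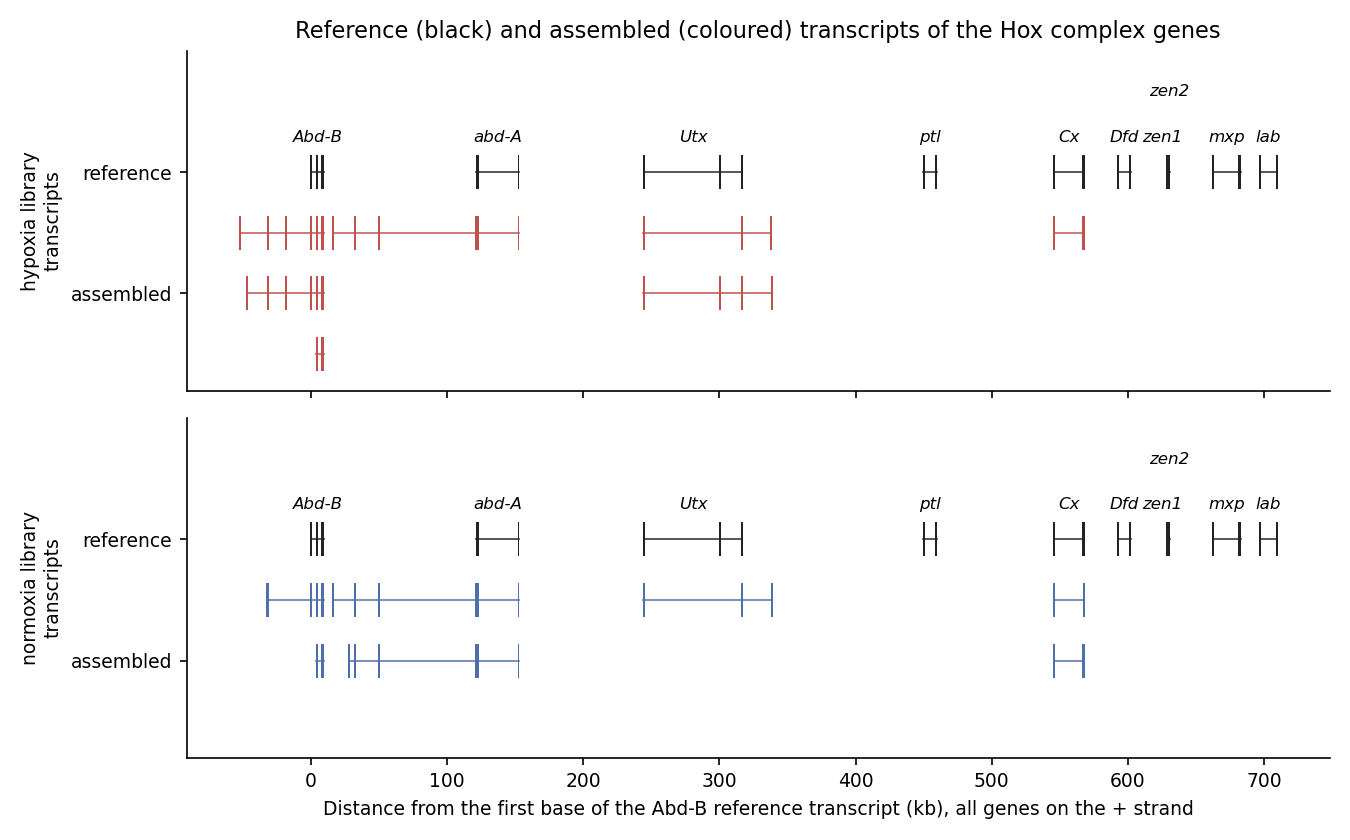
Reference transcripts (black) and assembled transcripts of the Hox complex genes in the hypoxia library (red, top) and the normoxia library (blue, bottom), by distance in kb from the first base of the Abd-B reference. Vertical marks are exons, drawn at a minimum width so that short ones can be seen, and lines are introns. Assembled transcripts of Abd-B and abd-A run far ahead of their references, those of Utx run past its end, and ptl, Dfd, zen1, zen2, mxp and lab have none.

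ptl (10140912 to 10151258), named prothoraxless, is the Antennapedia gene of the beetle and acts in the thorax. It had 4.86 FPKM (3.97 to 5.75) in hypoxia and 4.92 FPKM (3.98 to 5.87) in normoxia. The log2 ratio was -0.02 (-0.39 to 0.36), and both values lay well within the other library's interval. All of the FPKM of ptl was on its reference transcript of 2 exons and 3170 bases.

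Cx (10236992 to 10259408), named Cephalothorax, is the Sex combs reduced gene, which acts in the labial segment and the prothorax. It had 5.94 FPKM (4.56 to 7.33) in hypoxia and 10.7 FPKM (8.61 to 12.9) in normoxia. The intervals do not overlap. The level in hypoxia was 1.81-fold lower, with a log2 ratio of -0.84 (-1.28 to -0.41). Cx was the fourth highest gene of the complex in hypoxia and the third highest in normoxia.

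The transcripts of Cx that were built in both libraries differed less than their sum with the rest. The reference transcript of 3 exons and 2080 bases had 2.83 FPKM (1.87 to 3.79) in hypoxia and 4.40 FPKM (3.11 to 5.70) in normoxia. Taken alone its intervals overlap, its log2 ratio is -0.62, and Cx is not called. An assembled transcript with the same introns in both libraries had 3.11 FPKM (2.11 to 4.12) in hypoxia and 4.18 FPKM (2.87 to 5.49) in normoxia. Its middle exon has 213 bases, 116 fewer than the 329 bases of the reference. Normoxia alone had a transcript without the middle exon, at 2.16 FPKM (1.08 to 3.24), and this form makes up 20.1% of Cx there. Without it, Cx had 5.94 FPKM (4.56 to 7.33) in hypoxia and 8.58 FPKM (6.74 to 10.4) in normoxia, 1.44-fold lower in hypoxia with a log2 ratio of -0.52, and the intervals overlap. The call of Cx is lost without that transcript, but leaving it out lowers the normoxia level alone, so the ratio could only shrink. The libraries were assembled separately, and reads of this form in hypoxia may lie on the other Cx transcripts there. Whether the call depends on this form was therefore not tested. At a threshold of 2-fold Cx is not called either.

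**Figure D4:**
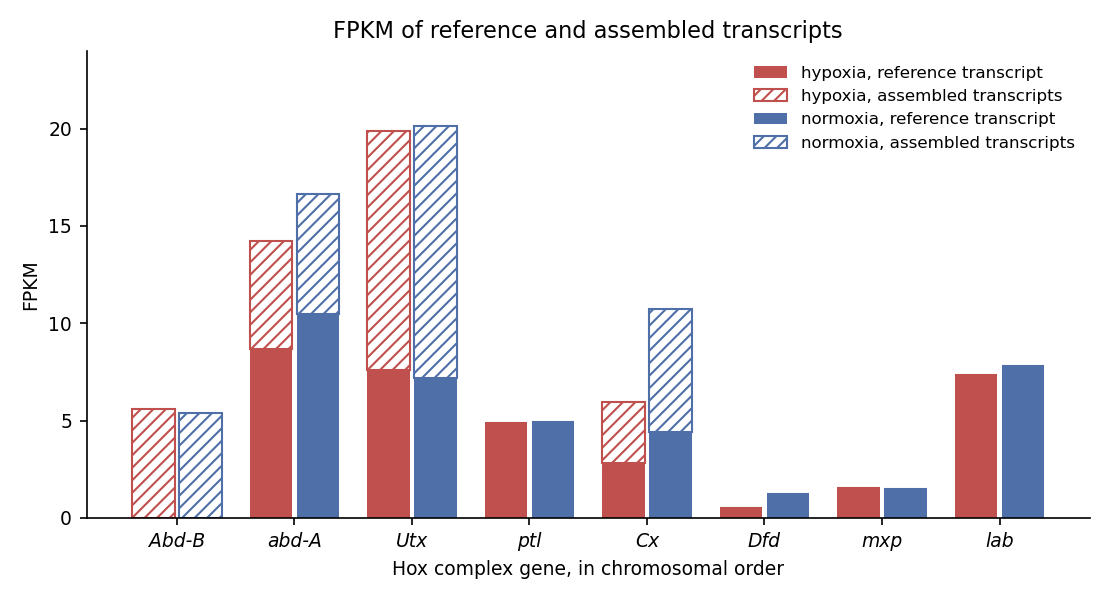
FPKM of the reference transcript (filled) and the assembled transcripts (hatched, stacked on it) for the 8 Hox complex genes above 0, in the hypoxia library (red, left of each pair) and the normoxia library (blue). Abd-B is wholly on assembled transcripts, and Cx has 2.83 FPKM on its reference in hypoxia and 4.40 FPKM in normoxia.

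Dfd (10283858 to 10293641), Deformed, acts in the mandibular segment. It had 0.527 FPKM (0.176 to 0.878) in hypoxia and 1.25 FPKM (0.675 to 1.82) in normoxia. The log2 ratio was -1.11 (-2.12 to -0.09), the lowest of the complex, but the intervals overlap and the mean of 0.888 FPKM is below the filter, so Dfd is not called. Dfd was thus the lowest of the 8 genes above 0 in both libraries, and the pseudocount of 0.1 FPKM weighs on its ratio.

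zen1 (10319914 to 10320762) and zen2 (10321045 to 10322024) are the zerknüllt genes, which have left the role of segment identity and act in the extraembryonic membranes of the embryo. Both were listed at 0 in hypoxia and at 0 in normoxia, and no assembled transcript shares their exons. An FPKM of exactly 0 can also be a failed estimate, so a level is not given and no ratio was taken.

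mxp (10353648 to 10374620), maxillopedia, is the proboscipedia gene, which acts in the maxillary and labial palps. It had 1.53 FPKM (0.980 to 2.08) in hypoxia and 1.496 FPKM (0.919 to 2.07) in normoxia. The log2 ratio was 0.03 (-0.68 to 0.74), so at this depth a 1.5-fold difference in either direction lies within the error.

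lab (10388274 to 10401062), labial, stands at the head end of the complex and patterns the intercalary segment. In *Drosophila* it also acts in the midgut. It had 7.36 FPKM (5.55 to 9.17) in hypoxia and 7.78 FPKM (5.83 to 9.74) in normoxia, a log2 ratio of -0.08 (-0.58 to 0.42). Its level was above those of Dfd and mxp in both libraries, with separate intervals, so the level did not follow the place in the complex.

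The order of the levels was the same in both libraries except for Cx and lab, which changed places. In hypoxia the order was Utx, abd-A, lab, Cx, Abd-B, ptl, mxp and Dfd. Neighbours in this order were separated by their intervals at 3 steps, from abd-A to lab (1.93-fold), from ptl to mxp (3.18-fold) and from mxp to Dfd (2.90-fold). In normoxia the order was Utx, abd-A, Cx, lab, Abd-B, ptl, mxp and Dfd, and neighbours were separated at 2 steps, from abd-A to Cx (1.55-fold) and from ptl to mxp (3.29-fold). At the other steps the intervals overlap, Utx and abd-A among them. Among all genes, the 8 Hox complex genes above 0 lay between the percentiles 42.4 and 73.5 in hypoxia and between 45.0 and 72.3 in normoxia. These percentiles count the genes listed at 0, which were 35.3% of all genes in hypoxia and 33.9% in normoxia. By the reference transcript alone the order is another, with abd-A highest in both libraries.

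**Figure D5:**
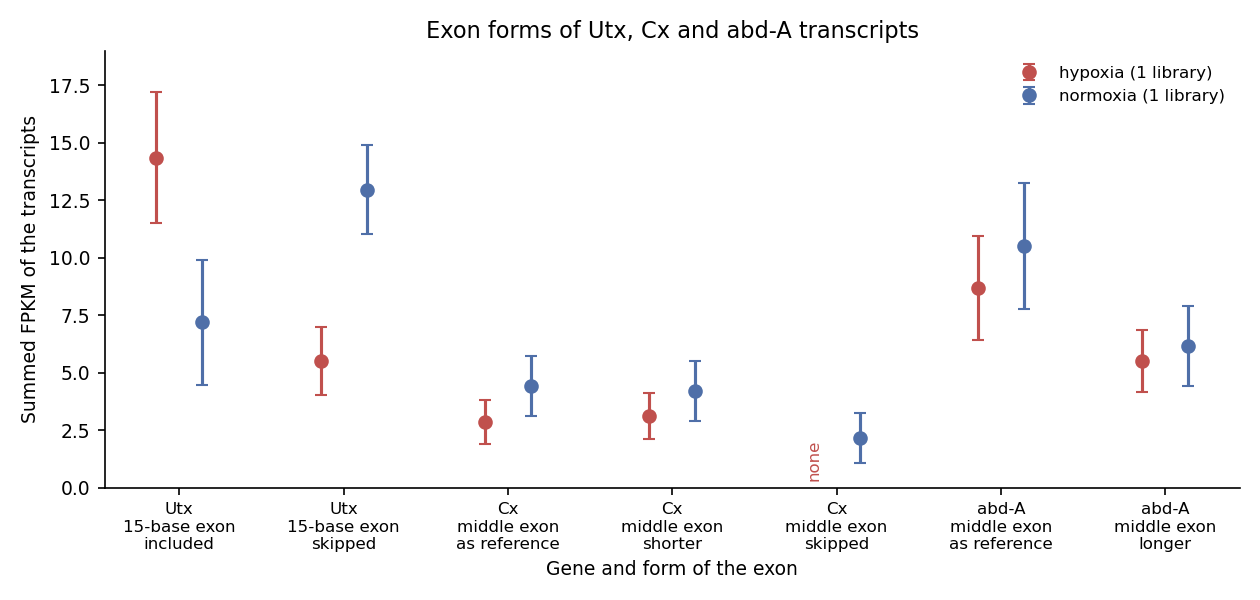
Summed FPKM of the transcripts with each form of the middle exon of Utx (15 bases), Cx and abd-A, in the hypoxia library (red, left of each pair) and the normoxia library (blue), with combined intervals. For Utx the form with the exon has 14.3 FPKM in hypoxia and 7.18 FPKM in normoxia and the form without it 5.51 and 13.0 FPKM, while the forms of abd-A overlap between the libraries.

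Middle exons of abd-A came in forms whose levels overlapped between the libraries. Transcripts with the reference form of 33 bases had 8.69 FPKM (6.42 to 11.0) in hypoxia and 10.5 FPKM (7.75 to 13.2) in normoxia. Transcripts with the form of 45 bases had 5.51 FPKM (4.16 to 6.86) in hypoxia and 6.16 FPKM (4.43 to 7.88) in normoxia. In all, 4 of the 10 genes had assembled transcripts, 7 of them in each library, and 3 of the 7 in hypoxia have a partner with the same introns in normoxia.

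The other reference genes in the space between the Hox complex genes held little FPKM in either library. Assembled transcripts of abd-A and Utx, counted with those genes, also have exons in this space. Of the 36 other reference genes between Abd-B and lab, 33 were listed at 0 in both libraries. The gene of the 36 with a mean over 1 FPKM was TC000898 (249 exonic bases), listed at 0 in hypoxia and at 7.57 FPKM (0.144 to 14.99) in normoxia. TC000898 is called lower by the rule used here, but on a wide interval set against a listed 0. None of the 36 shares bases with a reference transcript of a Hox complex gene, and TC000893 shares bases with the assembled transcripts of abd-A. A single assembled transcript in the complex, found in hypoxia, belongs to no reference gene. It lies on the + strand from 10266286 to 10269432, 6877 bases past Cx and 14425 bases ahead of Dfd, with 2 exons, 442 bases and 4.15 FPKM (1.40 to 6.90). It shares 78 bases with TC000646 of the other strand, and reads of the strands may not be told apart, since the protocol names no step that marks strand. In the RefSeq order Mir10 and 1 lncRNA stand between Cx and Dfd, but builds differ and the transcript was not matched to either.

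The genes beside the complex differed between its ends. The median of the mean FPKM was 5.20 for the 10 Hox complex genes, 2.29 for the 20 reference genes beyond Abd-B and 50.2 for the 20 beyond lab. Over all genes above the filter, 7.37% were called higher and 11.8% were called lower. Of the 20 reference genes beyond Abd-B, 11 were above the filter, with 1 called higher and 1 called lower. The 8 of them with a mean of at least 5 FPKM, TC000664, TC000666, TC000669, TC000880, TC000881, TC000882, TC000885 and TC000886, had means of 8.25 to 56.5 FPKM, and TC000881 was called higher, at 96.4 FPKM in hypoxia and 16.6 FPKM in normoxia. Of the 20 genes beyond lab, 16 were above the filter, with 0 called higher and 7 called lower. The 13 with a mean of at least 5 FPKM, TC000928 to TC000934, TC000937 to TC000940, TC000639 and TC000641, had means of 6.30 to 5889 FPKM. TC000932, TC000639 and TC000937 to TC000940 were among the 7 called lower. The paper names TC000936 to TC000939 as alpha-amylase genes that were reduced in hypoxia. TC000936 was listed at 0 in both libraries here, while TC000937 to TC000939, neighbouring genes of 1 family, enter this count. The median log2 ratio above the filter was -0.02 for the Hox complex genes, -0.0043 for the genes beyond Abd-B and -0.77 for those beyond lab, and these differences were not tested.

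Engrailed (TC008952), a homeobox gene of segment polarity outside the Hox complex, was called lower, with 3.13 FPKM (1.69 to 4.56) in hypoxia and 8.29 FPKM (5.79 to 10.8) in normoxia, a log2 ratio of -1.38 (-2.15 to -0.61). Over all genes above the filter, 11.8% were called lower. Engrailed was taken because the study's annotations name it, and the study drew its gene list from these same libraries. Its call may therefore not be independent of how it was chosen. Other cofactors and regulators of Hox genes are not analysed here, because no source at hand pairs them with identifiers of the files.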

How the data were processed

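RNA-seq of 1 hypoxia and 1 normoxia library was used. The authors trimmed reads at Q20, removed reads under 25 bases, mapped them to the BeetleBase genome and deposited, per library, Cufflinks transcripts built around reference transcripts. The values in the deposited files are FPKM, an interval and a coverage for each transcript. The aligner, the version of Cufflinks, the build and the annotation were not given in the sources used here. The members and lists were chosen with earlier results of these data known.

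An assembled transcript went to the gene whose reference exons it shared most bases with on its strand, and FPKM were summed per gene. Half-widths (upper bound minus FPKM) were squared, summed and rooted, and stand for 2 standard errors. Before log2, 0.1 FPKM was added to both levels, so changes of low genes come out too small. Genes with a mean under 1 FPKM were not called. Read totals are not in the files, and the median coverage per FPKM was 2.00 in hypoxia and 1.78 in normoxia. The paper lists clean reads and a GC content for each library, both higher in hypoxia, and no adjustment for GC content was made here. Whole reads could not be recovered from FPKM, and a count model was therefore not fitted. No p-value was computed.

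Named were the 10 members, genes beside the complex with a mean of at least 5 FPKM, assembled transcripts of at least 1 FPKM outside genes and Engrailed. The forms of exons, and TC000893, TC000898 and TC000646, were chosen after the values were seen. Alternatives tried were adding 0.01 or 1 FPKM, filters of 0 and 5 FPKM, centring, rescaling, the reference transcript alone, joining transcripts left out, coverage in place of FPKM, 2-fold, 2 standard errors and, chosen after seeing the data, leaving out assembled transcripts built in 1 library. Protein and promoter sequences were not analysed here. Python 3.11.15, numpy 2.4.6, pandas 2.3.3 and matplotlib 3.10.9 were used.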

Additional observations from a re-analysis of the deposited data

How the results depend on the processing

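The number of Hox complex genes called lower in hypoxia was 1 (Cx), and it was 0 by the reference transcript alone, 0 at a threshold of 2-fold, and 0 with assembled transcripts of 1 library left out, an alternative chosen after seeing the data. It stayed at 1 under the other alternatives run, and no gene was called higher under any of the 11. Log2 ratios of the Hox complex genes above 0 moved up by 0.08 to 0.10 with centring on the median, by 0.07 to 0.08 with the same sum and by 0.04 with the same sum without the 10 highest genes, so the signs of Utx and ptl turn under all 3, and that of lab under the first 2. With coverage in place of FPKM the sign of mxp turns and the log2 ratio of Utx is -0.21. By the reference transcript alone, or without assembled transcripts of 1 library, the sign of Utx turns. Without assembled transcripts of 1 library that of Abd-B turns to -0.48. None of these genes was called. The log2 ratio of Cx stayed between -0.85 and -0.52 and that of Dfd between -1.23 and -0.56. By the reference transcript alone 3 of the 10 genes in hypoxia and 2 of the 10 in normoxia kept their place in the order by level, but zen1 and zen2, listed at 0, are last in any case, and of the 8 genes above 0 only lab (1) kept its place in hypoxia and 0 did in normoxia. The reference of Abd-B is listed at 0. In hypoxia and normoxia the reference held 38.4% and 35.7% of Utx, 61.2% and 63.0% of abd-A, and 47.6% and 41.0% of Cx. It held 100% of ptl, Dfd, mxp and lab. No paired analysis was possible because each condition has 1 library, and leaving out a replicate was not possible either. Levels under about 1 FPKM are limited by depth, as the interval of Dfd shows.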
